A study of Homo sapiens with 12 samples.

Results

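The genes described here are the 45 protein-coding genes whose level was higher in selinexor-treated than in untreated OCI-LY3 cells and lower in selinexor-treated than in untreated SU-DHL6 cells. They were selected on their measured values in the deposited table of 58302 genes. A gene had to be protein-coding with a name that does not start with RPL or RPS (19716 genes), and to reach a mean of 5 FPKM or more in at least 1 group (5976 of these). FPKM is the number of counted fragments scaled to the length of the gene and the total of the library. With 0.5 FPKM added to each group mean, the ratio of treated to untreated cells then had to be 1.5 or more in OCI-LY3, which 659 genes met, and at most the inverse of 1.5, rounded to 3 decimals, in SU-DHL6, which 739 genes met. The 45 genes met both conditions. With the thresholds turned round, 136 genes were lower in treated OCI-LY3 and higher in treated SU-DHL6, while 189 genes were higher and 390 lower in both treated lines.

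The data are RNA sequencing libraries, 12 in all, in 4 groups of 3. OCI-LY3 and SU-DHL6 are established human lines of diffuse large B-cell lymphoma, a tumour of mature B cells. The labels give both as wild type, OCI-LY3 as the activated B-cell type and SU-DHL6 as the germinal centre B-cell type. Each line was grown untreated or with selinexor. The protocols name 300 and 100 nM, 24 and 48 h, and medium with 10% and 20% serum, but tie no dose, time or serum to a library or a line, so these may differ between the lines and cannot be told apart from the line here. The design text calls the replicates biological, and nothing says how the cultures were set up, so the spread between libraries may be partly technical.

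Selinexor binds XPO1, the receptor that carries proteins with a nuclear export signal out of the nucleus, and so holds its cargo inside. The cargo includes the tumour suppressor p53, a transcription factor that turns on genes for cell cycle arrest, DNA repair and apoptosis, and inhibitors of NF-kB, a family of factors that turns on immune and survival genes in B cells. Activated B-cell type lymphoma is known for constant NF-kB signalling, and germinal centre type lymphoma for the expression programme of germinal centre B cells. This is background, and none of these proteins was measured here.

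Library totals lay between 14210200 and 16405842 counts, and replicates of a group correlated at 0.981 to 0.986 on log2 CPM (counts relative to the library total). For these correlations and the principal components, the totals were scaled by TMM factors (a trimmed mean of ratios between libraries). In the CPM of overlapping genes given below they were not. The B-cell markers MS4A1, CD79A, CD79B and PAX5 had a summed level of 329 to 451 FPKM in the OCI-LY3 libraries and 764 to 895 FPKM in the SU-DHL6 libraries. All 4 natural killer, 4 epithelial and 3 erythroid markers were below 1 FPKM in every group, as were 5 of 6 T-cell, 5 of 6 myeloid and 4 of 5 fibroblast markers. The exceptions were TRAC, at 34.9 FPKM in SU-DHL6 with CD3G and CD2 at 0, ITGAM at 3.98 FPKM and COL1A1 at 2.19 FPKM. Plasma cell markers were higher in the treated libraries of both lines without overlap in their summed level. SDC1 stayed below 1 FPKM in every group, and the sum of SDC1, JCHAIN, MZB1 and TNFRSF17 was 4.99 to 6.96 FPKM in untreated and 27.9 to 32.1 FPKM in treated OCI-LY3. In SU-DHL6 the sum was 78.5 to 96.6 FPKM untreated and 107 to 128 FPKM treated. The part of these genes in the results was not tested. The first untreated SU-DHL6 library and the third treated OCI-LY3 library stood apart from their replicates on the fourth principal component, which held 1.21% of the variance. Without the former, 52 genes met the rule, 42 of them among the 45. Without the latter, 48 did, again 42 of them among the 45. In bulk RNA, fewer cells with a transcript and less of it per cell cannot be told apart.

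Among the 45 genes, LTB, IL4R and SGPP2 are shown by their promoter sequence, because their promoters hold the NF-kB motif and each encodes a protein of lymphocyte signalling or of lipid signals. The sequences run 5' to 3' on the strand of the gene, from 250 bases before to 50 bases after the start that RefSeq gives on GRCh38.p14, which is not the start of the deposited table for these genes. The capitals mark the motif. LTB lies at chr6:31582376-31582675 on the minus strand, IL4R at chr16:27313724-27314023 on the plus strand and SGPP2 at chr2:222423738-222424037 on the plus strand.
LTB: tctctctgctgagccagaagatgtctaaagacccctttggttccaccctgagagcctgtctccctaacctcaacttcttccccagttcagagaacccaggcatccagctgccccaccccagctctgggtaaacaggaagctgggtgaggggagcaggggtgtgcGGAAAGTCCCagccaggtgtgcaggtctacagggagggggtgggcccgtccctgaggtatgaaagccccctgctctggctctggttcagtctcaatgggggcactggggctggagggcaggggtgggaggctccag
IL4R: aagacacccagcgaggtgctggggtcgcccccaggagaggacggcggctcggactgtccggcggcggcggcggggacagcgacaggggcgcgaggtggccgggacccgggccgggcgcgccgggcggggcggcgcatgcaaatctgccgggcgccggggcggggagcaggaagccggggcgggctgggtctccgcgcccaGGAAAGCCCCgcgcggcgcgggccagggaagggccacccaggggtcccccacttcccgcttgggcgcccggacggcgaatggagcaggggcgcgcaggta
SGPP2: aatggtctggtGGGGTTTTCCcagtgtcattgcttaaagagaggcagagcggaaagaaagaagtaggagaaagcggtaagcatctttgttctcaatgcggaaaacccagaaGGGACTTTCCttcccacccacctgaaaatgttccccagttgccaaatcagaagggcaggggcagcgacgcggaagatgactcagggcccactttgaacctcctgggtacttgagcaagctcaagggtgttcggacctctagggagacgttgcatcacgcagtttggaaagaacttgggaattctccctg
The motif was GGG and TTTCC separated by any 2 bases, searched on both strands. Counted from the start, it lies in reverse at -86 to -77 in LTB and at -50 to -41 in IL4R, and in the forward direction at -239 to -230 and at -139 to -130 in SGPP2. RefSeq promoters were matched for 31 of the 45 genes, of which 4 (12.9%) held the motif, MRPL30 being the fourth. It was present in 2.5% of 4895 matched promoters of genes at the 5 FPKM floor and in 1.9% of all 27326 promoters of this length. Of 11 other motifs, the STAT motif (TTC and GAA separated by any 3 bases) was found in 16.1% of the 31 promoters against 5.8% at the floor, in ID3, RIMS3, LTB, MRPL30 and LCMT1. In MRPL30 it overlaps the ETS motif. The GC box (GGGCGG) was in 48.4% against 72.4%, the CCAAT box (CCAAT) in 32.3% against 38.2%, the ETS motif (CCGGAAG) in 12.9% against 22.7% and the TATA box (TATAAA) in 9.7% against 5.5%. The E-box (CACGTG) and the AP-1 motif (TGACTCA) were each in 3.2%, against 11.9% and 2.5%. The E2F motif, the interferon response element, the cyclic AMP response element and the heat shock element were in 3.2%, 6.5%, 0.0% and 0.0%, against 4.4%, 2.8%, 3.6% and 0.3%. The median GC content of these promoters was 61.0%, against 65.3% at the floor. A match of letters is a description of the sequence and shows no binding.

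The responses are plotted by line for 43 of the 45 genes, and their direction is what chose them. The median fitted log2 fold change between treated and untreated cells was 1.20 in OCI-LY3 and -1.28 in SU-DHL6, against 0.00 and 0.00 over the 16474 genes tested. These fold changes come from counts scaled by the same TMM factors. Of the 45 genes, 42 were called higher in OCI-LY3, where 22.2% of all genes tested were called higher and 22.2% lower. In SU-DHL6, 43 of the 45 were called lower, against 22.8% of all genes lower and 20.4% higher. Both calls together held for 4.43% of all genes tested. The treated and untreated libraries did not overlap in either line for 42 of the 45, against 222 of the 5976 genes at the floor (3.71%). Since the rule used these contrasts, nothing is read from these counts. Scaling by total counts moved the median of all genes tested to -0.09 in OCI-LY3 and 0.27 in SU-DHL6, and the 45 genes' medians to 1.08 and -1.01. The called genes were then 2939 higher and 4388 lower in OCI-LY3, against 3664 and 3657 with TMM, and 5451 higher and 2367 lower in SU-DHL6, against 3365 and 3758.

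**Figure D1:**
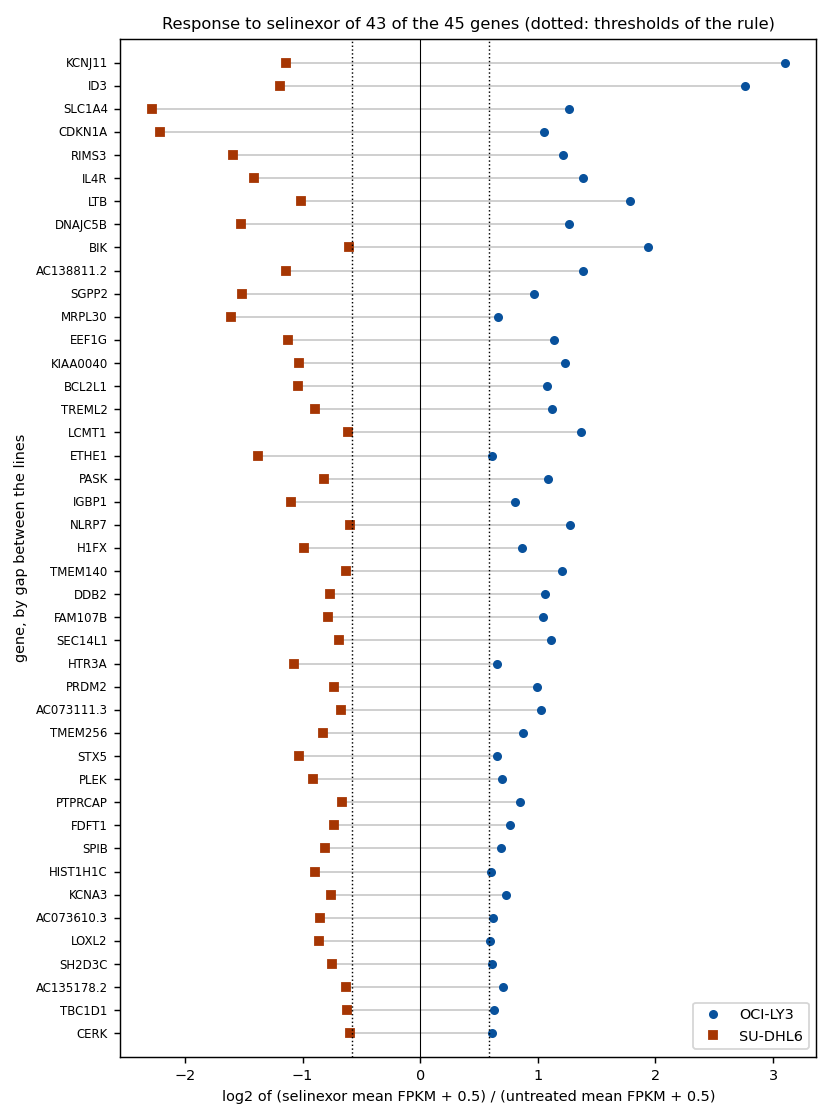
Each row is 1 of 43 of the 45 genes, ordered by the gap between the lines. The horizontal axis is log2 of the treated over the untreated mean FPKM, each with 0.5 added. Blue circles are OCI-LY3, brown squares SU-DHL6 and dotted lines the thresholds of 1.5 and its inverse. KCNJ11 and ID3 reach furthest in OCI-LY3 (3.10 and 2.76), and SLC1A4 and CDKN1A in SU-DHL6 (-2.28 and -2.22).

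Several genes lay close to a threshold. In OCI-LY3, the nearest ratios inside were LOXL2 at 1.51 and HIST1H1C at 1.51, and the nearest outside were CD82 at 1.4996 and TAGLN2 at 1.46. In SU-DHL6, NLRP7 at 0.662 and CERK at 0.660 were just inside, and FDXR at 0.672 and CCDC12 at 0.673 just outside. At the floor, ETHE1 reached 5.72 FPKM, while PARD6A at 4.75 FPKM was left out. Leaving out any 1 of the 12 libraries, 28 of the 45 genes still met the rule each time.

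The cell cycle and DNA repair genes among the 45 include CDKN1A and DDB2. Both are known p53 targets. CDKN1A (ENSG00000124762, chromosome 6, 36676460 to 36687339 on GRCh38) encodes an inhibitor of cyclin-dependent kinases. In OCI-LY3 it was at 33.4, 33.0 and 33.5 FPKM in the untreated libraries and at 71.3, 72.4 and 65.2 FPKM in the treated libraries. In SU-DHL6 the untreated libraries had 9.56, 10.2 and 10.0 FPKM and the treated libraries 1.87, 1.91 and 1.48 FPKM. All OCI-LY3 libraries thus lay above all SU-DHL6 libraries, and the treated groups were further apart than the untreated groups. The fitted log2 fold changes were 1.18 ± 0.11 (SE) in OCI-LY3 and -2.77 ± 0.12 in SU-DHL6. DDB2 (chromosome 11, 47214465 to 47239240), which recognises ultraviolet damage in DNA, was at 3.34, 2.76 and 2.47 FPKM in untreated and 5.88, 6.82 and 6.83 FPKM in treated OCI-LY3. In SU-DHL6 it was at 4.20, 3.43 and 4.30 FPKM untreated and 2.29, 1.96 and 2.16 FPKM treated. The untreated groups of DDB2 lay next to each other without overlap, while the treated groups were further apart and in the opposite order. Its fitted log2 fold changes were 1.30 ± 0.13 and -1.16 ± 0.13.

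The p53 list held 32 other tested genes. In OCI-LY3, 24 of them rose and 2 fell (edgeR quasi-likelihood test, Benjamini-Hochberg adjusted over all genes), with a median log2 fold change of 0.91. In SU-DHL6, 3 rose and 14 fell, with a median of -0.20. Scaled by total counts, 8 rose and 12 fell there and the median was 0.01, so its direction in SU-DHL6 depends on the scaling. Without the first untreated SU-DHL6 library, 5 rose. Of the 13 whose whole span, introns included, overlaps no other gene, 8 rose and 1 fell in OCI-LY3, and 2 rose and 7 fell in SU-DHL6. Of the 32, 9 rose in OCI-LY3 and fell in SU-DHL6, among them the pro-apoptotic genes BAX (1.83 ± 0.12 and -0.46 ± 0.12), PMAIP1 (0.66 ± 0.12 and -2.37 ± 0.13) and BBC3 (1.18 ± 0.19 and -0.90 ± 0.20), and the death receptor gene FAS (3.04 ± 0.30 and -1.83 ± 0.43). In the test of the difference between the lines' responses, 23 of the 32 were lower in SU-DHL6 and 0 higher, against 19.9% and 17.0% of all genes tested. Counts of this test, here and for the lists below, are given with TMM scaling alone. FDXR and CD82, also on this list, are the genes named above as just outside a threshold.

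**Figure D2:**
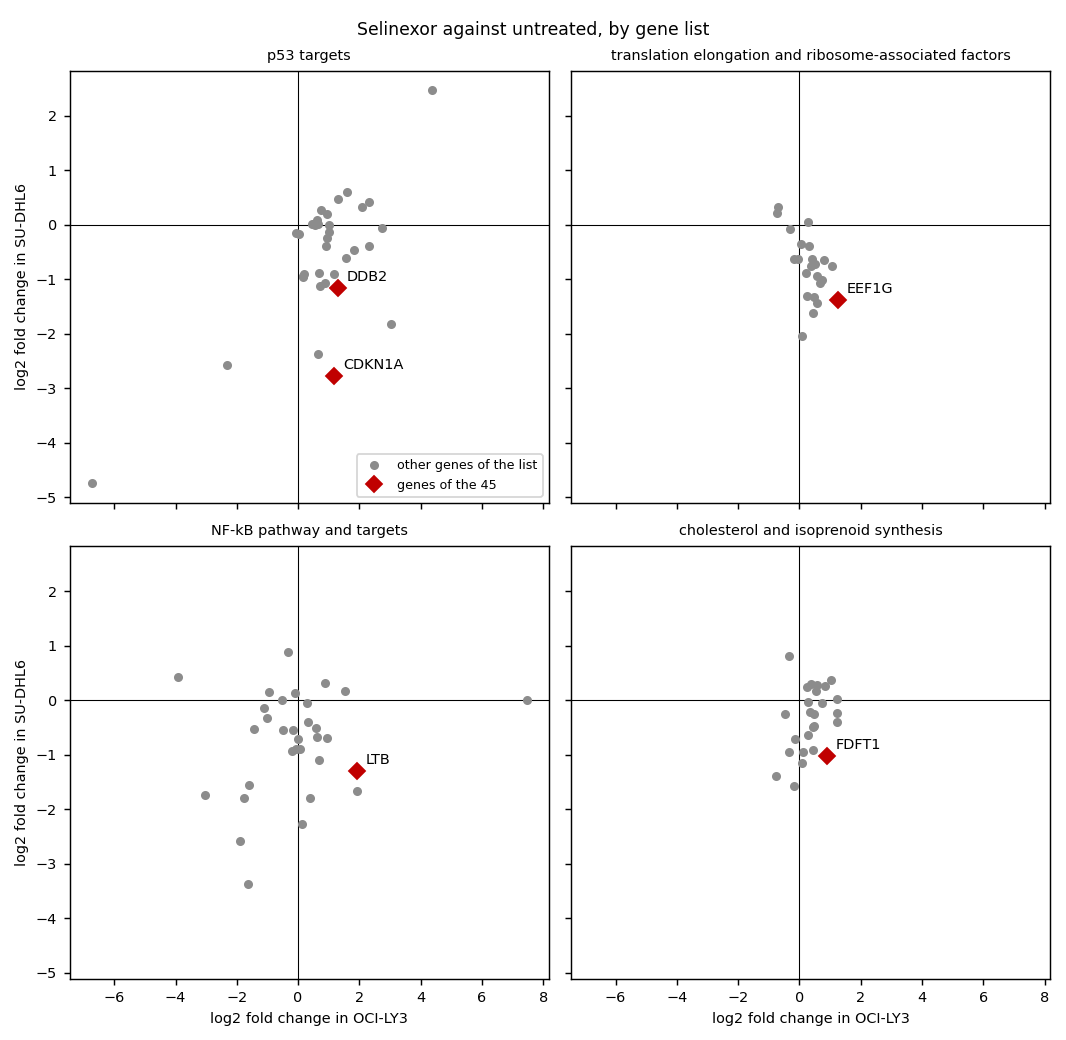
Each panel plots the genes of 1 list, with the log2 fold change of selinexor against untreated in OCI-LY3 on the horizontal and in SU-DHL6 on the vertical axis. Red diamonds are genes of the 45, grey points the other genes of the list. CDKN1A and DDB2 lie at 1.18 and -2.77 and at 1.30 and -1.16, and most other p53 targets lie right of 0.

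Among the apoptosis regulators, BIK and BCL2L1 are among the 45, and they have opposite known roles. BIK (chromosome 22, 43110748 to 43129712) encodes a pro-apoptotic BH3-only protein. It was at 1.90, 1.46 and 1.53 FPKM in untreated and 5.70, 7.04 and 10.2 FPKM in treated OCI-LY3, and at 7.53, 9.72 and 10.3 FPKM in untreated and 5.96, 6.65 and 4.97 FPKM in treated SU-DHL6. Untreated OCI-LY3 was the low group, and the treated lines overlapped. BCL2L1 (chromosome 20, 31664452 to 31723989) encodes the anti-apoptotic protein BCL-XL. It was at 9.07, 8.21 and 9.65 FPKM in untreated and 20.2, 19.2 and 19.2 FPKM in treated OCI-LY3. In SU-DHL6 it was at 12.4, 14.5 and 15.1 FPKM untreated and 6.98, 6.26 and 6.4 FPKM treated, so the order of the lines was turned. BCL2L1 shares 43.0% of its exonic bases with the antisense gene ABALON, and whether reads were counted by strand is not given in the sources used here. Fitted log2 fold changes were 2.34 ± 0.26 and -0.91 ± 0.23 for BIK and 1.24 ± 0.11 and -1.36 ± 0.11 for BCL2L1. Of 32 other apoptosis regulators, 12 rose and 5 fell in OCI-LY3 (median 0.29), and 7 rose and 12 fell in SU-DHL6 (median -0.29, and -0.03 when scaled by total counts). The 5 falls became 3 without the second untreated or the first treated OCI-LY3 library. The 7 rises became 4 without the second untreated OCI-LY3, the third untreated SU-DHL6 or the third treated SU-DHL6 library, and 4 with a replicate block. Only 11 of the 32 overlap no other gene in their span. MCL1, another anti-apoptotic gene, rose by 0.60 ± 0.09 in OCI-LY3 and fell by 0.40 ± 0.09 in SU-DHL6, whereas BCL2 rose in both (0.71 ± 0.09 and 0.79 ± 0.09).

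**Figure D3:**
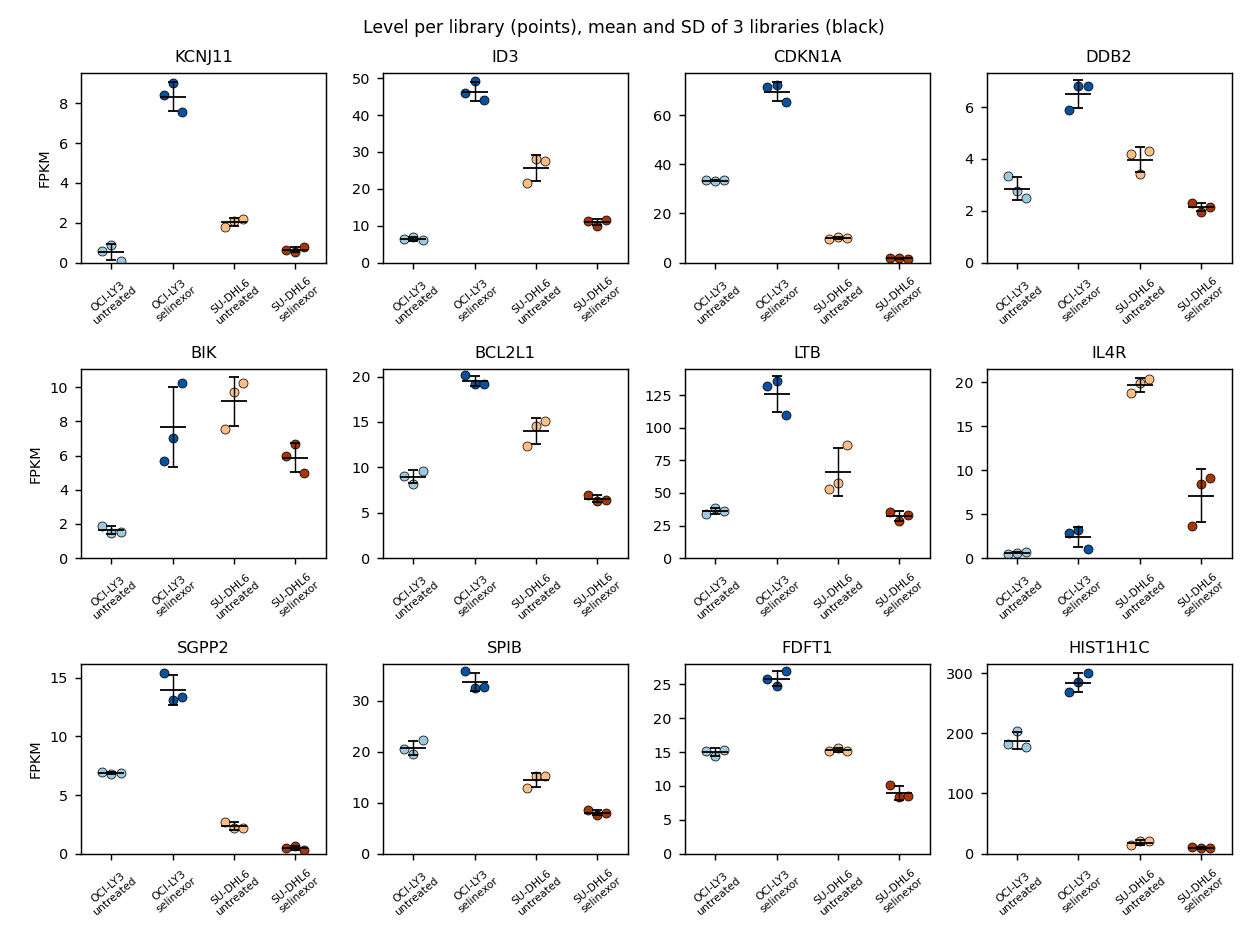
Each panel shows 1 gene, with FPKM on the vertical axis from 0 and the 4 groups on the horizontal axis. Points are libraries, and black marks give the mean and SD of 3 libraries. CDKN1A, SGPP2, SPIB and HIST1H1C are higher in OCI-LY3 in both states, whereas in ID3, BIK, LTB and BCL2L1 untreated OCI-LY3 lies below untreated SU-DHL6 and treated OCI-LY3 above treated SU-DHL6 on average.

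The ligand, receptor and signalling genes among the 45 start with LTB. LTB (chromosome 6, 31580525 to 31582522) encodes lymphotoxin beta, a membrane ligand of the tumour necrosis factor family that B cells use to organise lymphoid tissue. It was at 33.9, 38.2 and 36.2 FPKM in untreated and 132, 136 and 110 FPKM in treated OCI-LY3. It was at 52.7, 58.0 and 86.9 FPKM in untreated and 35.7, 28.6 and 32.9 FPKM in treated SU-DHL6. Treated OCI-LY3 was the high group, and untreated OCI-LY3 overlapped with treated SU-DHL6. IL4R (chromosome 16, 27313668 to 27364778) encodes the receptor chain that binds interleukin 4. It was at 0.526, 0.611 and 0.692 FPKM in untreated and 2.90, 3.25 and 1.06 FPKM in treated OCI-LY3, and at 18.8, 19.9 and 20.4 FPKM in untreated and 3.61, 8.48 and 9.13 FPKM in treated SU-DHL6. IL4R stayed below 4 FPKM in all OCI-LY3 libraries, so its OCI-LY3 ratio rests on low values, and 1 treated library of each line lay apart from its replicates. SGPP2 (chromosome 2, 222424517 to 222560948) encodes a phosphatase of sphingosine 1-phosphate. It was at 7.0, 6.77 and 6.87 FPKM in untreated and 15.4, 13.1 and 13.4 FPKM in treated OCI-LY3. In SU-DHL6 it was at 2.74, 2.19 and 2.19 FPKM untreated and 0.522, 0.678 and 0.316 FPKM treated. CERK, the ceramide kinase gene of the same lipid family, was at 24.8 to 27.8 and 39.3 to 42.2 FPKM in OCI-LY3 and at 11.3 to 13.3 and 7.12 to 8.43 FPKM in SU-DHL6.

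The NF-kB list held 31 genes besides LTB. In OCI-LY3, 8 rose and 12 fell, with a median of -0.10 (0.01 over the 19 with no overlap in their span). In SU-DHL6, 1 rose (2 without the first treated OCI-LY3 or the second treated SU-DHL6 library) and 19 fell, with a median of -0.55. Scaled by total counts, 3 rose and 12 fell in SU-DHL6. The 5 that rose in OCI-LY3 and fell in SU-DHL6 were the feedback inhibitor gene TNFAIP3 (0.68 ± 0.09 and -1.10 ± 0.10), MAP3K14 (0.93 ± 0.19 and -0.69 ± 0.19), NFKB2 (0.59 ± 0.11 and -0.51 ± 0.11), CD83 and ICAM1. LTA, which encodes the partner of lymphotoxin beta, fell in both lines, by 1.78 ± 0.10 and 1.80 ± 0.11. The difference between the lines was lower in SU-DHL6 for 13 and higher for 6 of the 31. Of 30 other chemokine, cytokine and receptor genes, 13 rose and 8 fell in OCI-LY3 (median 0.32), and 4 rose and 9 fell in SU-DHL6 (median -0.09). The 9 falls became 5 without the second untreated SU-DHL6 library, and with total counts 6 rose, 3 fell and the median was 0.00. Among them, IL21R, another cytokine receptor gene, rose by 0.67 ± 0.12 in OCI-LY3 and fell by 1.52 ± 0.13 in SU-DHL6, and CCR7 changed by 1.32 ± 0.10 and -0.30 ± 0.11.

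The transcription factor genes among the 45 are ID3, SPIB and PRDM2. ID3 (chromosome 1, 23557918 to 23559794) encodes a helix-loop-helix protein that binds E proteins and keeps them off DNA. It was at 6.34, 6.94 and 6.0 FPKM in untreated and 45.9, 49.2 and 44.1 FPKM in treated OCI-LY3. In SU-DHL6 it was at 21.6, 28.1 and 27.4 FPKM untreated and 11.3, 10.0 and 11.5 FPKM treated. The 4 groups did not overlap: treated OCI-LY3 was highest, followed by untreated SU-DHL6, treated SU-DHL6 and untreated OCI-LY3. The fitted log2 fold changes of ID3 were 2.96 ± 0.13 and -1.50 ± 0.13. SPIB (chromosome 19, 50418938 to 50431313) encodes an ETS family factor of B cells. It was at 20.4, 19.5 and 22.3 FPKM in untreated and 35.7, 32.6 and 32.6 FPKM in treated OCI-LY3, and at 12.8, 15.2 and 15.1 FPKM in untreated and 8.51, 7.50 and 7.99 FPKM in treated SU-DHL6. SPIB shares 19.6% of its exonic bases with AC020909.1, which had 0 counts in all SU-DHL6 libraries. In OCI-LY3, AC020909.1 had a mean of 556 CPM untreated and 682 CPM treated, against 207 and 335 CPM for SPIB. Summed over both, the log2 ratios were 0.42 in OCI-LY3 and -0.84 in SU-DHL6, against 0.70 and -0.84 for SPIB alone, so the sum missed the OCI-LY3 threshold. Of 35 other transcription factor genes of B cells, 14 rose and 6 fell in OCI-LY3 (median 0.18), and 3 rose and 13 fell in SU-DHL6 (median -0.13). With total counts, 9 rose and 8 fell in SU-DHL6, and the median turned to 0.13. Only POU2AF1 (0.62 ± 0.10 and -0.42 ± 0.10) and BACH2 (0.85 ± 0.13 and -1.07 ± 0.12) of the 35 rose in OCI-LY3 and fell in SU-DHL6. TCF3, which encodes an E protein that ID3 binds, fell in both lines, by 1.38 ± 0.12 and 1.05 ± 0.12. The other E protein genes of the list differed from it. TCF4 changed by 0.96 ± 0.12 in OCI-LY3 and 0.08 ± 0.28 in SU-DHL6, and TCF12 by -0.69 ± 0.14 and 0.20 ± 0.13.

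The channels and transporters among the 45 include the largest ratio in OCI-LY3. KCNJ11 (chromosome 11, 17385859 to 17389331) encodes the pore of ATP-sensitive potassium channels. It was at 0.587, 0.902 and 0.105 FPKM in untreated and 8.43, 9.02 and 7.57 FPKM in treated OCI-LY3, and at 1.81, 2.10 and 2.20 FPKM in untreated and 0.625, 0.528 and 0.806 FPKM in treated SU-DHL6. It passed the floor through treated OCI-LY3 alone, and its untreated OCI-LY3 level differed 8.58-fold between libraries. SLC1A4 (chromosome 2, 64988477 to 65023865) encodes a transporter of neutral amino acids. It was at 11.1, 10.3 and 11.4 FPKM in untreated and 18.0, 32.8 and 30.1 FPKM in treated OCI-LY3. In SU-DHL6 it was at 14.9, 32.2 and 32.1 FPKM untreated and 4.88, 5.23 and 4.99 FPKM treated, so 1 treated OCI-LY3 and 1 untreated SU-DHL6 library lay well below their replicates without reaching the other group. HTR3A, a subunit of the serotonin-gated ion channel, was at 84.5, 84.5 and 91.3 FPKM in untreated and 139, 137 and 135 FPKM in treated OCI-LY3, and at 2.20, 2.38 and 1.85 FPKM in untreated and 0.898, 0.715 and 0.652 FPKM in treated SU-DHL6. KCNA3, a voltage-gated potassium channel of lymphocytes, was at 15.6 to 16.8 and 25.2 to 29.1 FPKM in OCI-LY3 and at 1.83 to 2.0 and 0.805 to 0.999 FPKM in SU-DHL6. Both genes were thus high in all OCI-LY3 libraries and low in all SU-DHL6 libraries, and their SU-DHL6 ratio rests on low values.

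The chromatin and metabolic genes among the 45 include linker histones and an enzyme of sterol synthesis. HIST1H1C (chromosome 6, 26055787 to 26056428) encodes a linker histone. It was at 183, 204 and 176 FPKM in untreated and 268, 285 and 299.7 FPKM in treated OCI-LY3, and at 14.03, 20.9 and 20.6 FPKM in untreated and 11.1, 8.76 and 9.33 FPKM in treated SU-DHL6. H1FX, a linker histone outside the replication histone clusters, was at 98.3 to 112 and 172 to 199 FPKM in OCI-LY3 and at 24.3 to 29.3 and 12.3 to 14.5 FPKM in SU-DHL6. Of the 24 other replication histone genes tested, 20 rose and 0 fell in OCI-LY3 (median 1.14), and 18 rose and 0 fell in SU-DHL6 (median 1.48). Without any 1 of the untreated OCI-LY3 libraries, or without the first treated SU-DHL6 library, 1 fell there, and without the first untreated SU-DHL6 library 2 fell. HIST1H1E, another linker histone, had 1.20 ± 0.35 in OCI-LY3 and -0.93 ± 0.37 in SU-DHL6, where its adjusted p was 0.0579. FDFT1 (chromosome 8, 11795573 to 11839309) encodes squalene synthase, the enzyme that commits isoprenoids to sterols. It was at 15.2, 14.4 and 15.4 FPKM in untreated and 25.8, 24.7 and 27.0 FPKM in treated OCI-LY3, and at 15.1, 15.6 and 15.2 FPKM in untreated and 10.2, 8.30 and 8.50 FPKM in treated SU-DHL6. The untreated lines overlapped in FDFT1, and the treated lines lay on either side of them. Of 25 other genes of cholesterol and isoprenoid synthesis, 11 rose and 3 fell in OCI-LY3 (median 0.36), and 1 rose and 9 fell in SU-DHL6 (median -0.24). The 1 rise became 2 without the second untreated OCI-LY3 library and 3 without the first untreated SU-DHL6 library, and with total counts 6 rose, 7 fell and the median was 0.02. The 8 genes with no overlap in their span had a median of 0.12 in SU-DHL6. LSS, which acts after FDFT1 in the pathway, changed by 1.24 ± 0.12 and -0.39 ± 0.12, and 15 of the 25 were lower and 0 higher in the test of the difference.

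EEF1G has the highest FPKM of the 45 genes, and its count cannot be separated from that of a second gene model. EEF1G (chromosome 11, 62559601 to 62574086) encodes a subunit of the elongation factor that loads transfer RNA onto the ribosome. It was at 384, 198 and 138 FPKM in untreated and 481, 566 and 538 FPKM in treated OCI-LY3, and at 399, 555 and 480.1 FPKM in untreated and 269, 196 and 194 FPKM in treated SU-DHL6. AP002990.1 covers 99.9% of its exonic bases on the same strand. Summed over both, untreated OCI-LY3 had 1369, 1367 and 1554 CPM and treated OCI-LY3 2382, 1989 and 2131. The sums in SU-DHL6 were 1962, 1962 and 1975 untreated and 969, 863 and 867 treated. The sums varied less between replicates than EEF1G alone in 3 of the 4 groups, treated OCI-LY3 being the exception. Their log2 ratios were 0.60 and -1.13, against 1.14 and -1.12 for EEF1G alone. Of 22 other genes of translation elongation and ribosome-associated factors, 12 rose and 3 fell in OCI-LY3 (median 0.33), and 0 rose and 18 fell in SU-DHL6 (median -0.73). Without the third treated OCI-LY3 or the first untreated SU-DHL6 library, 1 rose in SU-DHL6. Scaled by total counts, 3 rose and 16 fell there, and 8 rose and 4 fell in OCI-LY3. All but 2 of the 22 overlap another gene in their span. A rise in OCI-LY3 with a fall in SU-DHL6 was called for 11 of them, such as TPT1 (1.06 ± 0.09 and -0.75 ± 0.09), RACK1 (0.48 ± 0.09 and -1.32 ± 0.09) and EEF1A1 (0.58 ± 0.09 and -0.93 ± 0.09), and 18 were lower and 2 higher in the test of the difference.

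**Figure D4:**
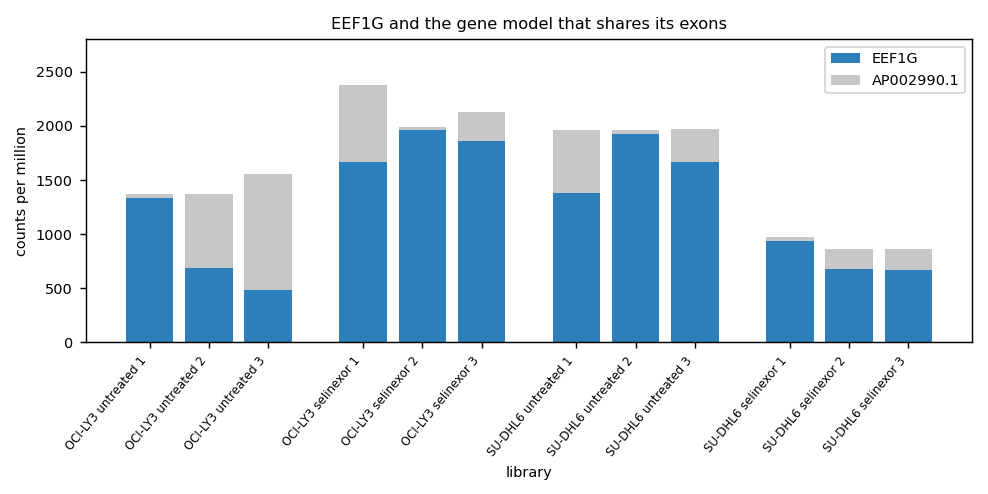
Bars give the CPM of EEF1G (blue) and of AP002990.1 (grey), stacked, for each of the 12 libraries. The split between the gene models differs between replicates, whereas the stacked height lies between 1367 and 1554 in untreated and 1989 and 2382 in treated OCI-LY3. In SU-DHL6 it lies between 1962 and 1975 untreated and between 863 and 969 treated.

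Other genes of the 45 also share exons with a neighbour. In all, 16 of the 45 (35.56%) share exonic bases with another gene, against 37.52% of the genes at the floor. PTPRCAP, which encodes a partner of the phosphatase CD45, lies wholly within exons of CORO1B. The summed counts had log2 ratios of 0.79 and -0.50, against 0.85 and -0.66 for PTPRCAP alone, so the sum missed the SU-DHL6 threshold. MRPL30, a gene of the mitochondrial ribosome, was at 3.0, 0.906 and 3.25 FPKM in untreated and 2.53, 1.79 and 7.84 FPKM in treated OCI-LY3, and at 2.69, 11.8 and 10.3 FPKM in untreated and 3.75, 1.90 and 1.48 FPKM in treated SU-DHL6. Its groups overlap in both lines. MRPL30 shares 19.5% of its exonic bases with AC079447.1, and the summed counts had log2 ratios of 0.34 and -1.42, against 0.75 and -1.77 for MRPL30 alone. This sum missed the OCI-LY3 threshold. A total of 4 genes with clone names share most of their exons with ARL6IP1 and RPS15A, KRBA2 and RPL26, ZNF775 and REPIN1, or ARF3, and 1 of them was at 0 in a treated OCI-LY3 library. Summed with these partners, in the same order, the log2 ratios were 0.44 and -0.30, 0.53 and -0.58, 0.45 and 0.68, and 0.55 and -0.42. In OCI-LY3 all 4 sums fell short of a ratio of 1.5. The sum with ZNF775 and REPIN1 was higher in treated SU-DHL6. The level differed over 2-fold between replicates in at least 1 group for 10 of the 45 genes. The median length implied by the deposited counts and FPKM was 5.25 kb for the 45 genes, against 7.07 kb at the floor. This length can exceed the annotated exonic bases. The median GC content of the longest annotated transcript was 54.0%, against 50.03% at the floor. The median highest group level was 19.7 FPKM, against 12.3 FPKM at the floor.

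The remaining genes fall into small groups by known role. LCMT1, which methylates the catalytic subunit of protein phosphatase 2A, and IGBP1, which binds that subunit, had log2 fold changes of 1.57 ± 0.13 and -0.95 ± 0.13, and of 0.92 ± 0.11 and -1.37 ± 0.12. The haematopoietic signalling genes PLEK, TREML2 and SH2D3C were all higher in OCI-LY3 in both states. PLEK, a substrate of protein kinase C, was at 280.2 to 296 and 436 to 506 FPKM in OCI-LY3 and at 105 to 125 and 59.0 to 61.2 FPKM in SU-DHL6. RIMS3, a protein of presynaptic release sites, was at 15.5, 14.9 and 15.6 FPKM in untreated and 36.8, 38.4 and 33.3 FPKM in treated OCI-LY3, and at 7.64, 8.15 and 7.72 FPKM in untreated and 1.89, 2.20 and 2.72 FPKM in treated SU-DHL6. DNAJC5B, a J-domain protein, was at 0.501, 0.55 and 0.674 FPKM in untreated and 1.88, 2.47 and 1.93 FPKM in treated OCI-LY3, and at 7.95, 6.60 and 6.54 FPKM in untreated and 2.09, 2.15 and 2.11 FPKM in treated SU-DHL6. In DNAJC5B the treated libraries of the lines thus reached the same range. STX5 of Golgi transport, the sensor kinase PASK, the Rab regulator TBC1D1, the mitochondrial sulphur enzyme ETHE1, NLRP7, SEC14L1, FAM107B, KIAA0040 and TMEM256 are also among the 45, with LOXL2 and TMEM140 given below. By chromosome, 6 of the 45 genes (13.33%) lie on chromosome 11 and 5 each (11.11%) on chromosomes 1 and 2, against 5.82%, 10.58% and 6.02% of the genes at the floor.

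The level in OCI-LY3 against SU-DHL6 was also averaged over untreated and treated cells. This average is the difference between the untreated lines plus 0.5 times the difference between their responses, and the rule chose the responses, so the counts are given as a description and nothing is read from them. By edgeR's quasi-likelihood test with Benjamini-Hochberg adjustment over 16474 genes, 34 of the 45 (75.6%) were called higher in OCI-LY3 on this average, 5 (11.1%) lower and 6 not called. In untreated cells alone, by group means, 21 were higher in OCI-LY3 and all others lower. No share of all genes was taken for untreated cells alone. On the average over both treatments, 38.0% of all genes tested were called higher and 38.3% lower, and at the 5 FPKM floor 42.0% and 39.1%. The median log2 difference of the 45 on this average was 1.03, against -0.03 over all genes tested and 0.03 at the floor. Scaled by total counts, 32 were higher and 6 lower, with a median of 0.78 against -0.29 over all genes tested, of which 4992 were then higher and 7870 lower, against 6253 and 6317 with TMM. A gene could also pass the 5 FPKM floor through OCI-LY3 alone, as TREML2 and HTR3A did, and the part of the floor in these counts was not tested.

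**Figure D5:**
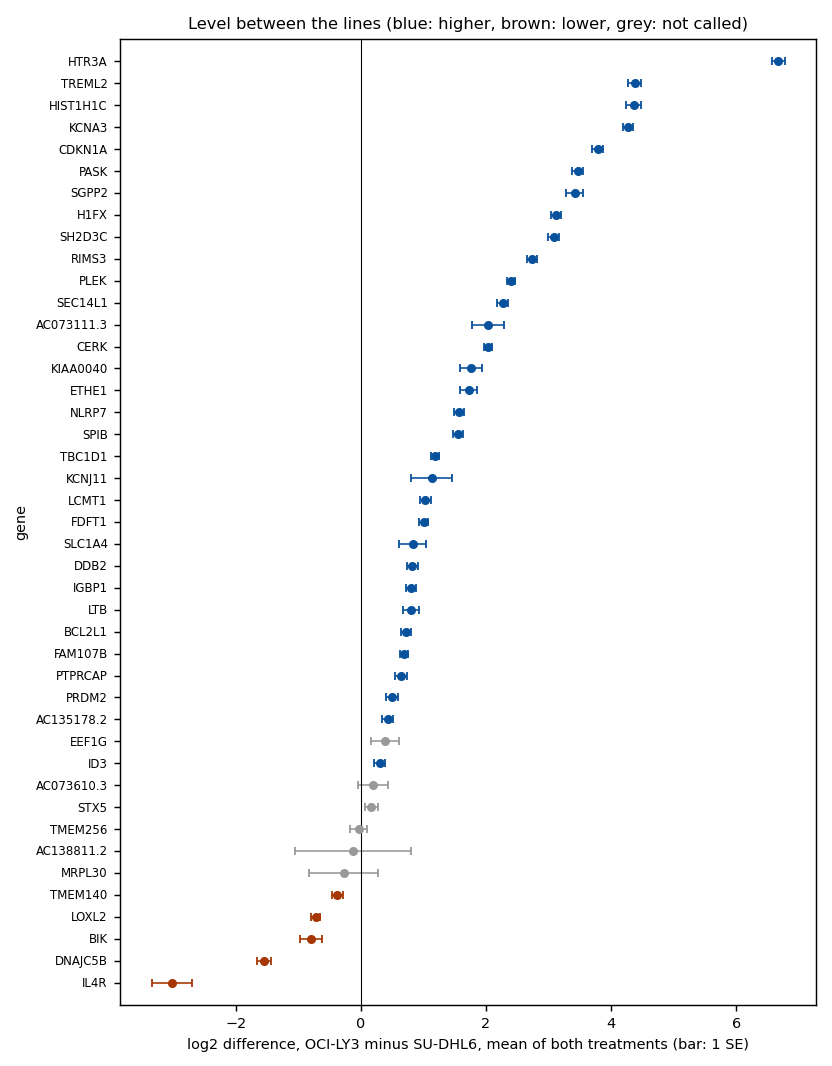
Points give the log2 difference of OCI-LY3 minus SU-DHL6 over both treatments and bars 1 SE, for 43 of the 45 genes on the vertical axis. The 32 genes in blue were called higher and the 5 in brown lower in OCI-LY3, from HTR3A at 6.67 to IL4R at -3.02, and the 6 in grey were not called.

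On this average HTR3A had the largest log2 difference of the 45, 6.67 ± 0.10 (SE). TREML2, a receptor of the TREM family, followed at 4.38 ± 0.10, with 10.2 to 12.1 and 24.4 to 25.8 FPKM in OCI-LY3 and 1.48 to 1.62 and 0.43 to 0.70 FPKM in SU-DHL6. HIST1H1C at 4.36 ± 0.12, KCNA3 at 4.27 ± 0.09 and CDKN1A at 3.79 ± 0.08 came next. In these 5 genes all OCI-LY3 libraries lay above all SU-DHL6 libraries. The genes called lower in OCI-LY3 were IL4R at -3.02 ± 0.32, DNAJC5B at -1.55 ± 0.11, BIK at -0.80 ± 0.17, LOXL2 at -0.73 ± 0.07 and TMEM140 at -0.38 ± 0.09. LOXL2, a lysyl oxidase of the extracellular matrix, was at 4.56, 4.28 and 4.50 FPKM in untreated and 7.16, 7.12 and 6.62 FPKM in treated OCI-LY3, and at 14.5, 15.1 and 15.5 FPKM in untreated and 8.13, 7.18 and 8.83 FPKM in treated SU-DHL6. In LOXL2 the distance between the lines narrowed under treatment to neighbouring levels. TMEM140, a membrane protein, was at 3.60 to 4.54 and 9.87 to 10.3 FPKM in OCI-LY3 and at 12.2 to 12.9 and 6.88 to 9.23 FPKM in SU-DHL6.

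The order of the lines changed with treatment in 21 of the 45 genes. By group means, 21 genes were higher in OCI-LY3 in untreated and treated cells, 21 were lower in untreated and higher in treated OCI-LY3, and 3 (IL4R, DNAJC5B and LOXL2) were lower in both states. The 21 that changed order include ID3, LTB, BIK, BCL2L1, SLC1A4, KCNJ11, DDB2 and FDFT1. The highest of the 4 groups was treated OCI-LY3 for 35 genes and untreated SU-DHL6 for 10. The median level of the 45 genes per library was 8.37 to 9.50 FPKM in untreated and 19.6 to 20.6 FPKM in treated OCI-LY3, and 9.56 to 11.5 FPKM in untreated and 4.31 to 5.23 FPKM in treated SU-DHL6. Of the 45, 31 to 33 genes were at or above 5 FPKM in untreated libraries of either line, 40 to 42 in treated OCI-LY3 and 20 to 23 in treated SU-DHL6. These levels and the direction of the responses follow from the rule and are given as a description.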

How the data were processed

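RNA was sequenced from 12 libraries, 3 in each of 4 groups. The authors deposited a whole-number read count and an FPKM value per gene and library, per the file headers. The FPKM values follow from the counts, each library's total and 1 length per gene. Which aligner and counter were used, and whether by strand, is not given in the sources used here. Per the submitters' processing notes the builds were GRCm38 and mm10, both of mouse, but the identifiers are human, and 58039 of 58302 were found in GENCODE release 29 on GRCh38. The 45 genes and the gene lists were chosen with earlier results of these data known.

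The counts entered edgeR 4.0.16 in R 4.3.3 (filterByExpr by group, TMM, 1 robust quasi-likelihood model over all libraries, Benjamini-Hochberg adjustment, called at an adjusted p under 0.05). SE is the standard error of a log2 fold change. Alternatives were other scalings and filters, limma 3.58.1 (voom), DESeq2 1.42.0, leaving out each library, and the replicate number as a block. Same-numbered libraries did not deviate together, so they were not paired. Genes named with values in every library were the 12 with the largest gap between the lines' responses, those on a fixed list and the 5 per direction with the largest called line difference. Genes known only by a clone name were left unnamed, as far as a result did not turn on them. Some genes are not reported here.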

Additional observations from a re-analysis of the deposited data

Results flagged for a closer look

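The lists that hold any of the 45 genes were compared between the lines by the test of the difference of responses (SU-DHL6 minus OCI-LY3, edgeR), over their other genes. The response was lower in SU-DHL6 for 23 and higher for 0 of 32 p53 targets, lower for 18 and higher for 2 of 22 genes of translation elongation and ribosome-associated factors, and lower for 15 and higher for 0 of 25 genes of cholesterol and isoprenoid synthesis. It was lower for 16 and higher for 2 of 35 transcription factor genes of B cells, lower for 13 and higher for 6 of 31 NF-kB genes, and lower for 13 and higher for 3 of 32 apoptosis regulators. Of 30 chemokine, cytokine and receptor genes 9 were lower and 1 higher, and of 24 replication histones 6 were lower and 5 higher. Lists that hold none of the 45 genes went both ways, so a lean to lower is not particular to these lists. Of 42 actin cytoskeleton and migration genes, 22 were lower and 4 higher, and of 24 antigen presentation genes 16 and 1. Of 32 ribosome assembly and nucleolus genes, 1 was lower and 21 were higher, and of 22 heat shock protein genes 2 and 12. Genes can belong to more than 1 list, and 19.9% of all genes tested were lower and 17.0% higher in this test. All these counts are given with TMM scaling alone. Scaled by total counts, the median response of all genes tested was -0.09 in OCI-LY3 and 0.27 in SU-DHL6. The counts may therefore depend on the scaling, which was not tested for this difference.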

How the results depend on the processing

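The number of genes that met the rule was 26 with 2 FPKM added in place of 0.5, all of them among the 45, and 102 when FPKM was rescaled by TMM factors, which included all 45. Under the other settings it ranged from 36 to 58, and leaving out each library gave 39 to 52. Without genes whose whole span overlaps another gene (a wider measure than the shared exonic bases above), which leaves fewer genes in each list, 17 of the 45 were tested for the line difference, of which 15 were higher and 2 lower in OCI-LY3. Scaled by total counts, the median response was 1.08 in OCI-LY3 and -1.01 in SU-DHL6, against 1.20 and -1.28. Under every other setting 32 to 35 genes were called higher in OCI-LY3 and 4 to 6 lower. These settings fit the same 45 chosen genes, so the counts are no sign of stability. Leaving out each library gave 34 to 35 higher and 5 lower. With a replicate block, 34 were higher and 5 lower, and no call among the 45 changed, although same-numbered libraries did not deviate together. For single genes, 954 of 958 values under alternatives kept their call. Genes called in the main fit also kept their direction, whereas some genes not called changed sign. With total counts, ID3 (0.04, adjusted p = 0.649) and 1 gene with a clone name were no longer called and TMEM256 became lower (-0.29), and without the third untreated OCI-LY3 library EEF1G was called higher (0.53). With 3 libraries a group and an unstated handling of shared reads, values of overlapping genes are uncertain.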

Other observations

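Among the RPL and RPS genes at the 5 FPKM floor, which the rule leaves out, RPL15, RPL27A, RPL32, RPL37A and RPS18 met the same ratios in both lines. They encode ribosomal proteins and had log2 ratios of 0.60 to 0.95 in OCI-LY3 and -1.54 to -0.71 in SU-DHL6. RPL37A had the lowest of these ratios in SU-DHL6, -1.54.

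Of 1053 genes of other types at the floor, 31 met the ratios, 19 of them among 440 processed pseudogenes. EEF1GP5, a pseudogene of EEF1G, had log2 ratios of 1.02 and -1.60, and GAS5, a host gene of small nucleolar RNAs, 0.62 and -0.73. The immunoglobulin lambda constant genes IGLC2 and IGLC3 had 0.73 and -0.86, and 1.42 and -0.90. Reads of pseudogenes and of near-identical immunoglobulin genes may be shared with their parents or copies.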
